A study of Homo sapiens with 36 samples.

Results

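The 48 genes described here carry human cells from G1 into S phase and copy the DNA: E2F transcription factors, origin licensing and helicase subunits, polymerases and clamp loaders, enzymes of nucleotide supply, and factors of chromatin assembly and the S-phase checkpoint. They were taken by gene symbol from a list of such genes in 10 role groups, and all 48 were among the 14988 genes that passed the filter on low counts, of 29744 genes in the deposited table. The list was chosen with earlier results of these data known, so the shares of members set beside all genes below are descriptions. The RNA came from BxPC-3, an established cell line from a human pancreatic ductal adenocarcinoma and labelled as wild type. Cells were treated for 4 h or 2 h with TRAP1 (also written TRAP-1), TRAP-1-NegP, JQ1, MS78 or TRAP-1-NegB at 3 µM, or with the DMSO vehicle, with 3 libraries in each of the 12 groups, and polyadenylated RNA was sequenced in 150-base read pairs. TRAP1 is here a compound and not the mitochondrial chaperone gene of that name. JQ1 is a well known inhibitor of the BET bromodomain proteins, which bind acetylated chromatin. The labels do not say what the suffixes NegP and NegB stand for, nor what MS78 is. The labels number the replicates without naming separate cultures, so the p-values below measure the spread between libraries, which may be technical.

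Library totals ran from 15288688 to 26608325 estimated counts. All 10 ductal and epithelial markers exceeded 1 TPM (transcript abundance relative to length and library total) in all 36 libraries, and 6 acinar or islet markers (AMY2A, PNLIP, INS, GCG, SST, PPY) were listed at 0 in every library. The summed ductal and epithelial markers were 12250 to 12510 TPM with TRAP1 at 4 h, against 10580 to 11450 TPM with DMSO, and the summed mesenchymal markers stayed between 16.3 and 29.7 TPM over all libraries. In 2 groups 1 library differed from its replicates more than elsewhere. TRAP1 at 4 h replicate 1 had 1287 tested genes without a count, against 929 and 503 in the other 2 libraries of its group. For MS78 at 2 h replicate 1, a chi-square of its counts against each of its replicates, divided by its degrees of freedom, gave 27.1 and 43.8, against 4.51 to 15.1 for pairs in the other groups and 7.05 for the remaining MS78 pair. Results that moved without these libraries are given with both values. A change in bulk RNA can come from a different mix of cells in the cycle or from a different level per cell, and these cannot be told apart here.

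E2F1, E2F2 and E2F3 switch on the genes of the G1/S transition once cyclin-dependent kinases have inactivated the retinoblastoma protein, and the atypical E2F8 represses many of the same genes later in S phase. Origins are licensed in G1, when the origin recognition complex, CDC6 and CDT1 load the ring of MCM helicase subunits onto DNA. In S phase the ring is activated by MCM10, CDC45 and the GINS complex, polymerases extend primers laid down by primase, and nucleotides and histones are supplied as the forks move.

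Most of the members are known E2F targets, so the promoters of 5 of them that moved in opposite directions are shown, with matches to an E2F motif in capitals. The sequences are RefSeq's for build GRCh38.p14, 250 bases before and 50 after the annotated start, on the strand of the gene. E2F2 (chr1:23531184-23531483, minus strand), CDT1 (chr16:88803539-88803838, plus strand) and CDC25A (chr3:48188368-48188667, minus strand) were lower with TRAP1 at 4 h, and CDC6 (chr17:40287629-40287928, plus strand) and SLBP (chr4:1712270-1712569, minus strand) were higher.
E2F2: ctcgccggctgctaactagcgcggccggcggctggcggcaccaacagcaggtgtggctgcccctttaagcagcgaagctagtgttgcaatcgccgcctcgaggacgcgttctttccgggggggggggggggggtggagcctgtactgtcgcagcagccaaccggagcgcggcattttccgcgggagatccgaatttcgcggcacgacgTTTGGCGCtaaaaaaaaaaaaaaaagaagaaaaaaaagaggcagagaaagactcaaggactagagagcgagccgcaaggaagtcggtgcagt
CDT1: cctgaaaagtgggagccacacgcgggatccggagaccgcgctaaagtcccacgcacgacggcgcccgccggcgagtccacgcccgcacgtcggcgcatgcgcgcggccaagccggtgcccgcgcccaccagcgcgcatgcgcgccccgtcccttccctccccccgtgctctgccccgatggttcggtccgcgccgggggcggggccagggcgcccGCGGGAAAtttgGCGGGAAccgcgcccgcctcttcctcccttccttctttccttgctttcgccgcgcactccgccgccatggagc
CDC25A: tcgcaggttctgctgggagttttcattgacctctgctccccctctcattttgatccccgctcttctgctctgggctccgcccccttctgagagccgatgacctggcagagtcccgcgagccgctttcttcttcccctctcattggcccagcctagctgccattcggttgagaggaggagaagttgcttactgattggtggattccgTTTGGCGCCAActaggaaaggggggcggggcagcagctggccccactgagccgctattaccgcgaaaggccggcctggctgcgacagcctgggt
CDC6: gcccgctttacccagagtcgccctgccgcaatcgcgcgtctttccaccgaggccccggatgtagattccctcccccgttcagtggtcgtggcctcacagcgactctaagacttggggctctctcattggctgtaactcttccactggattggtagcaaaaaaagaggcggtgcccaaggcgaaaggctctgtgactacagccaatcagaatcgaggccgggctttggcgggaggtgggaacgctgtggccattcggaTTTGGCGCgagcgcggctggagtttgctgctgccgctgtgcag
SLBP: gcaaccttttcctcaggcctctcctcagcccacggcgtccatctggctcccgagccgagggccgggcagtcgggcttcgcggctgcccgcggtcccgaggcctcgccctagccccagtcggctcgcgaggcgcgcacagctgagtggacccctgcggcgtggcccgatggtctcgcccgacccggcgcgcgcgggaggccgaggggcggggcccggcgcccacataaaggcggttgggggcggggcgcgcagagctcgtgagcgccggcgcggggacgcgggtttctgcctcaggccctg

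Capitals mark the 8-letter forms TTTGGCGC, TTTCCCGC, TTTGCCGC or TTTCGCGC and the 7-letter cores TTCCCGC or TTGGCGC, read on both strands; TTTGGCGC and TTTCCCGC each contain a core. Counting the first base of the gene as 0, the match TTTGGCGC lay from -42 to -35 in E2F2 and from -44 to -37 in CDC25A, and TTTCCCGC lay from -35 to -28 in CDT1 on the other strand, with a further core from -23 to -17. In CDC25A a core on the other strand, from -40 to -34, overlapped the match. The CDC6 match, TTTGGCGC, lay from 7 to 14, just inside the transcript. Forms outside the list were not searched for, such as tttggcggg, which stands in lower case before the start in the CDC6 window. None of these letters occurred in the SLBP window, which says nothing about binding of an E2F protein there. RefSeq promoters were matched for 41 of the 48 members, with 56 annotated starts. An 8-letter form was present in 25 of these 56 windows (44.6%), against 3.32% of all 35116 promoters of the same length and 4.1% of 22199 protein-coding ones. A core was present in 60.7%, against 9.23% and 11.5%. Most of the members are known E2F targets, so a higher share than in all promoters is no result of these data. By the call of the gene with TRAP1 against DMSO at 4 h, an 8-letter form stood in 53.6% of 28 promoters of members that were lower, in 23.1% of 13 promoters of members that were higher and in 46.7% of 15 promoters of members without a call. The 7-letter cores stood in 21 of the 28 promoters (75%) of members that were lower, in 46.2% of those that were higher and in 46.7% of those without a call, so for the cores the higher and the uncalled members had nearly the same share. No promoter was scored for ATAD2, GINS4 and MCM4, 3 of the 12 members that were higher, for ATAD5, E2F8 and MCM5, which were lower, or for RPA2. The CHR element of late cell cycle genes (TTTGAA or TTCGAA, both strands) was present in 8.93% of the members' windows, 16.4% of all and 13.7% of protein-coding ones. Starts of one gene overlap, so these windows are not independent, and the shares are a description.

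On the length-adjusted TPM scale in DMSO at 4 h, the members spanned from ATAD5, at 1.97 ± 0.544 TPM (SD, n = 3), to MCM7, at 314 ± 6.34 TPM. E2F8 and E2F2, at 4.92 ± 1.28 and 5.04 ± 0.884 TPM, were next to ATAD5 at the low end and did not differ from each other beyond their SD. TK1, at 254 ± 4.38 TPM, and DUT, at 153 ± 6.15 TPM, followed MCM7 at the high end. All levels given below are CPM (counts relative to library total, scaled by TMM factors), and compare one gene between groups only.

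With TRAP1 at 4 h, 25 of the 48 members fell against DMSO and 12 rose (edgeR quasi-likelihood test, adjusted p under 0.05 over all tested genes). Over all tested genes 24.5% were called lower and 22.2% higher. The median log2 fold change of the members was -0.22, against -0.02 for all tested genes. In 24 members all 3 TRAP1 libraries lay below all 3 DMSO libraries, and in 13 all lay above, against 26.3% and 24.7% of all genes. The E2F group, the MCM ring, helicase activation, polymerases and primase, the clamp loader group, chromatin assembly and the checkpoint group each held more members that fell than rose, and licensing held 2 of each. Nucleotide supply had 4 of 6 members higher and 1 lower, and the group of single-strand binding and Okazaki fragment processing had 1 of 3 higher and none lower. The TMM scaling factors were 0.837 to 0.862 in the TRAP1 libraries at 4 h, against 1.01 to 1.03 in DMSO. No call of a member turned its sign with DESeq2 size factors. Both scalings take most genes as unchanged, so they cannot show whether the small rises depend on scaling. In mean TPM, which has no such scaling, MCM4, RRM1, LIG1, CDC45 and ATAD2 were lower with TRAP1 than with DMSO. The other members called higher, ORC6, CDC6, GINS4, RRM2, TYMS, TK1 and SLBP, were higher in mean TPM too. TRAP-1-NegP at 4 h had 15 members lower and 12 higher (all genes 18.9% and 18.6%), and JQ1 at 4 h had 19 lower and 16 higher (all genes 24.6% and 24.3%), both against the same DMSO libraries. The TMM factors at 4 h were 0.897 to 0.9178 with TRAP-1-NegP and 0.9345 to 0.9379 with JQ1. Whether small rises with these compounds at 4 h depend on scaling was not tested.

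**Figure D1:**
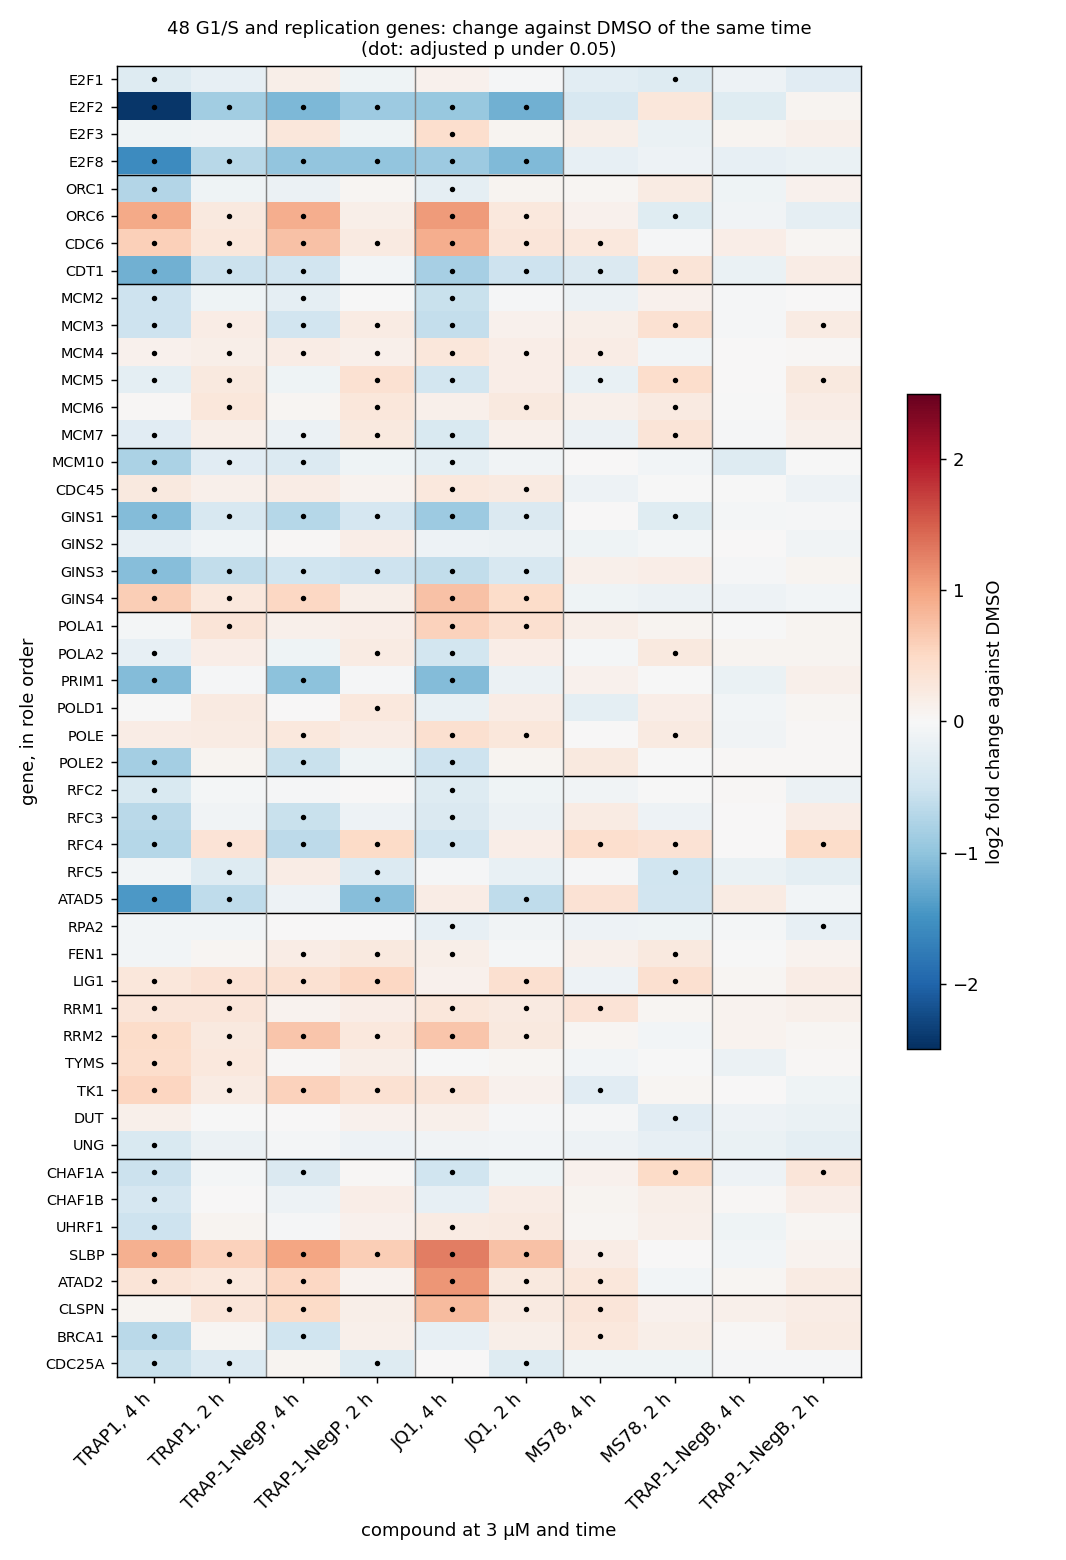
Log2 fold change of each of the 48 members (rows, in role order, with lines between role groups) against DMSO of the same time, by compound and time (columns); colours run from blue (lower) to red (higher), and a dot marks an adjusted p under 0.05. E2F2 and E2F8 are blue with TRAP1, TRAP-1-NegP and JQ1 at both times, SLBP is red in the same 6 columns, and TRAP-1-NegB at 4 h has no dot.

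At 2 h more members rose than fell with each of these compounds. TRAP1 had 17 members higher and 9 lower (all genes 15.7% and 14.3%), TRAP-1-NegP 14 and 7 (16.4% and 13.9%), and JQ1 15 and 7 (14.8% and 13.9%). The median log2 fold changes at 2 h were 0.06, 0.12 and 0.09 with TRAP1, TRAP-1-NegP and JQ1, against 0.01, 0.01 and 0.02 for all tested genes. The TMM factors at 2 h were 0.9805 to 1.041 with these compounds, against 1.081 to 1.084 in DMSO. Whether the small rises at 2 h, and their majority, depend on scaling was not tested. These compounds share the DMSO libraries of their time, so their values are set side by side and not counted as separate support.

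E2F2, an activator E2F, had the largest fall of any member. It had 3.35, 2.3 and 3.6 CPM with TRAP1 at 4 h, against 19.6, 13.5 and 16.6 CPM with DMSO. All TRAP1 libraries lay below all DMSO libraries (log2 fold change -2.43, SE 0.21, adjusted p = 5.2e-15). With TRAP-1-NegP at 4 h it had 8.59, 6.57 and 7.7 CPM and with JQ1 6.69, 10.4 and 8.68 CPM, between the TRAP1 and the DMSO libraries, with log2 fold changes of -1.12 and -0.95 against DMSO. At 2 h E2F2 had 7.2, 9.27 and 12.4 CPM with TRAP1, 8, 11.1 and 9.08 with TRAP-1-NegP and 9.64, 6.65 and 6.69 with JQ1, against 17.7, 17.6 and 17.7 with DMSO. No treated library of these 3 compounds reached a DMSO library, and the log2 fold changes were -0.88, -0.91 and -1.21. E2F8, the atypical repressor, moved the same way: 5, 3.73 and 3.26 CPM with TRAP1 at 4 h, against 15.1, 10.6 and 10.2 CPM with DMSO (log2 fold change -1.58, SE 0.21, adjusted p = 4.0e-09). With TRAP-1-NegP it had 4.62, 6.66 and 6.74 CPM and with JQ1 7.34, 5.62 and 6.19 CPM at 4 h, where it fell by 1.00 and by 0.91 on the log2 scale. At 2 h it had 8.84, 9.16 and 9.01 CPM with TRAP1, 7.58, 7.83 and 6.76 with TRAP-1-NegP and 6.55, 6.15 and 7.88 with JQ1, against 14.5, 11.7 and 17.7 with DMSO. No library of the 3 compounds reached a DMSO library at 2 h, and E2F8 fell by 0.70 with TRAP1, 0.99 with TRAP-1-NegP and 1.09 with JQ1. The TRAP1 call at 2 h rests on DMSO replicate 3, without which the adjusted p was 0.0542.

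E2F1, the best known activator, changed less. It had 37.3, 36.5 and 37.4 CPM with TRAP1 at 4 h, against 45.5, 42.4 and 51.7 CPM with DMSO, and the groups did not overlap (log2 fold change -0.33, SE 0.11, adjusted p = 0.0097). Without DMSO replicate 3 the adjusted p was 0.0717. E2F1 passed with neither TRAP-1-NegP (log2 fold change 0.15, 95% interval -0.06 to 0.37) nor JQ1 (0.10, 95% interval -0.11 to 0.32) at 4 h. E2F3, a further activator, was called with JQ1 at 4 h, where it rose by 0.42 on the log2 scale; the call was lost without DMSO replicate 2 or 3 or JQ1 replicate 1. Over the 12 group means of log2(CPM + 1), the pattern of E2F2 was most like that of E2F8 (Pearson r = 0.970), then MMRN2 (0.956) and PDIK1L (0.955) among all tested genes, and E2F8, GINS3 and CHAF1A among the members; these are descriptions over 12 groups that share their libraries.

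**Figure D2:**
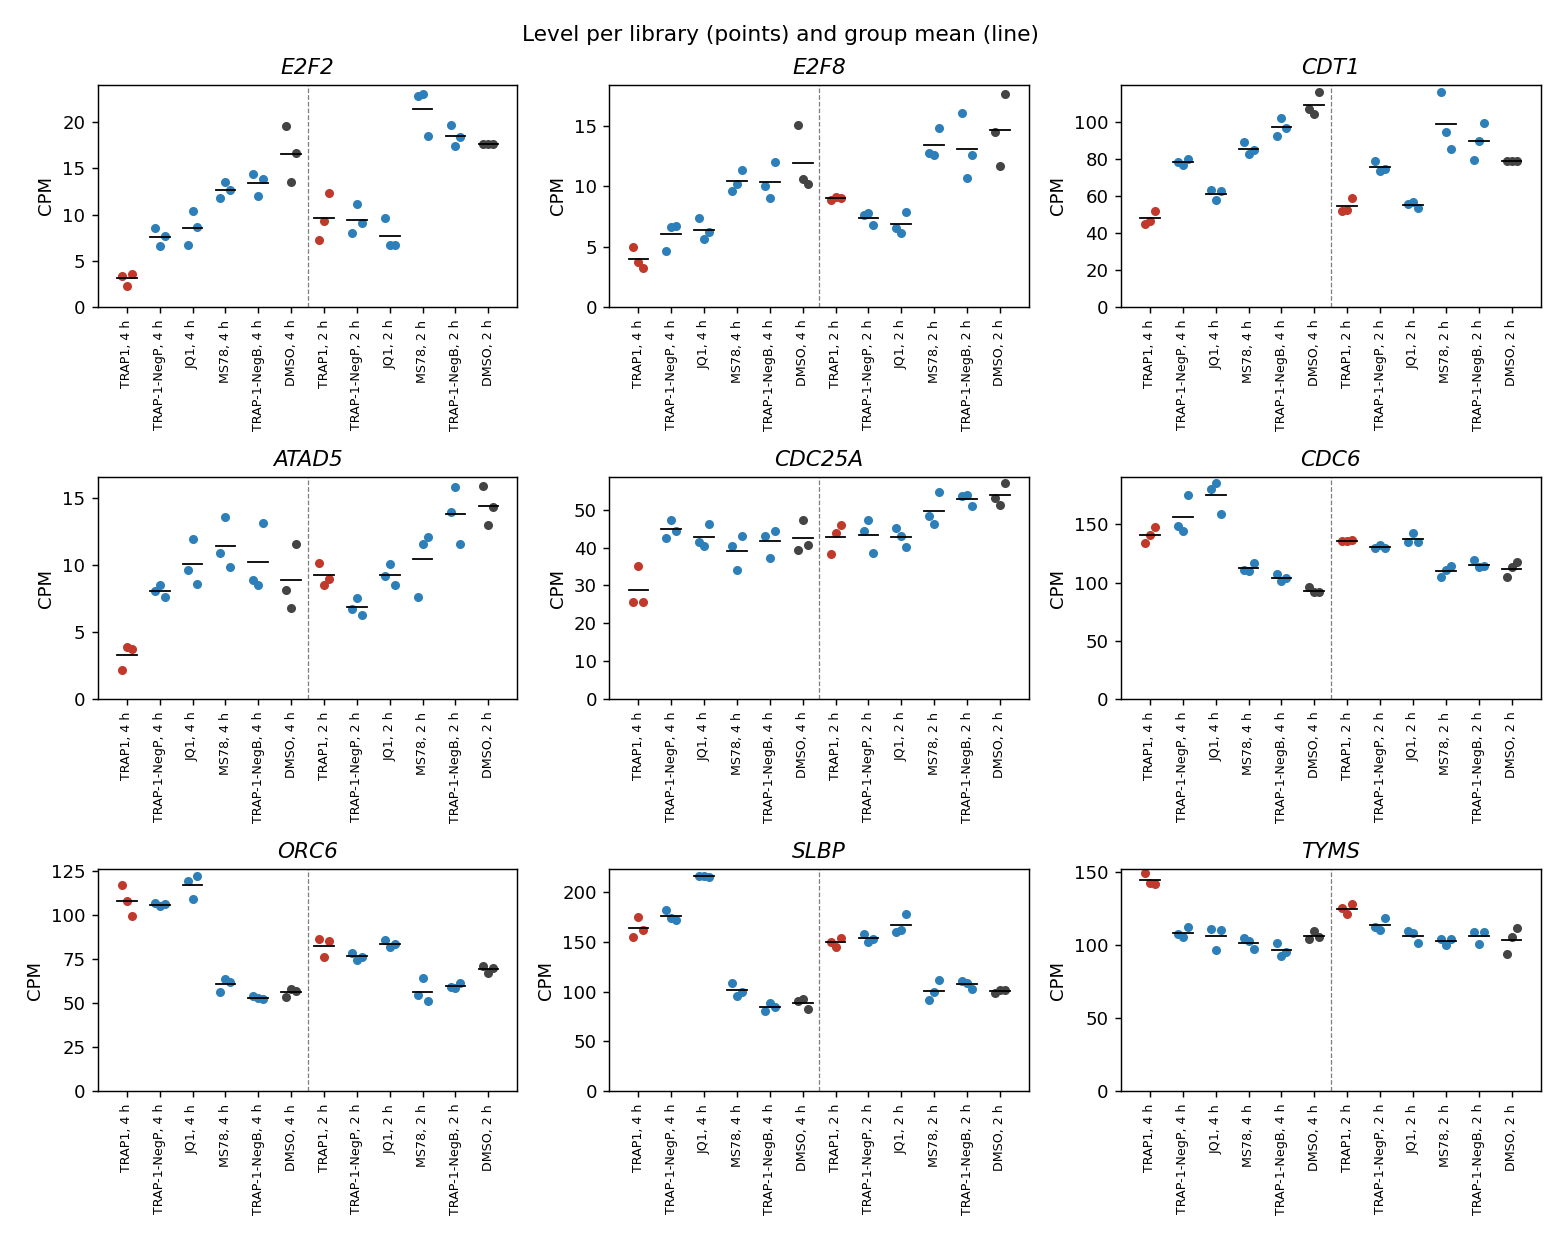
CPM (TMM-scaled, linear axes from 0) of 9 members in each library (points) with the group mean (line), 4 h groups left of the dashed line and 2 h groups right of it; TRAP1 is red, DMSO dark grey and the other compounds blue. E2F2 and CDT1 are lowest with TRAP1 at 4 h, SLBP is highest with JQ1 at 4 h, ATAD5 is low at 4 h with TRAP1 and not with TRAP-1-NegP or JQ1, and TYMS is highest with TRAP1.

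The licensing genes split. CDC6, the loader that recruits CDT1 and the MCM ring to origins, had 134, 141 and 148 CPM with TRAP1 at 4 h, against 95.8, 91.7 and 92.1 CPM with DMSO (log2 fold change 0.60, SE 0.07, adjusted p = 5.8e-11). CDC6 was also higher with TRAP-1-NegP (149, 145 and 175 CPM, log2 fold change 0.74) and JQ1 (181, 186 and 159 CPM, 0.91), so that every library of the 3 compounds lay above every DMSO library. ORC6, the smallest subunit of the origin recognition complex, had the largest rise with TRAP1: 117, 108 and 99.2 CPM with TRAP1, 107, 105 and 106 with TRAP-1-NegP and 119, 109 and 122 with JQ1 at 4 h, against 53.6, 58.2 and 56.5 with DMSO. Its log2 fold changes were 0.94, 0.92 and 1.06. CDT1, the partner of CDC6 in MCM loading, went down. It had 44.8, 46.6 and 51.8 CPM with TRAP1 at 4 h, against 107, 104 and 116 CPM with DMSO (log2 fold change -1.19, SE 0.09, adjusted p = 1.2e-17), and 78.3, 76.5 and 79.7 CPM with TRAP-1-NegP and 63.3, 57.6 and 62.4 CPM with JQ1, where it fell by 0.48 and by 0.84. The libraries of each compound lay apart from the rest, TRAP1 lowest and DMSO highest. At 2 h CDT1 fell with TRAP1 (-0.53) and JQ1 (-0.52), and did not pass with TRAP-1-NegP (-0.06, 95% interval -0.23 to 0.11). ORC1, the large ATPase subunit of the complex, fell by 0.74 with TRAP1 at 4 h, was slightly lower with JQ1 (-0.22) and did not pass with TRAP-1-NegP (-0.15). The pattern of CDC6 over the 12 group means was most like that of SIRT1 (r = 0.982), FKBP5 (0.980) and STK17B (0.977), and among members like SLBP (0.969), RRM2 (0.968) and ORC6 (0.940).

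Within the MCM ring, whose 6 subunits form the core of the replicative helicase, the changes were small. MCM2 had 167, 163 and 165 CPM with TRAP1 at 4 h, against 224, 237 and 245 CPM with DMSO (log2 fold change -0.51, SE 0.06, adjusted p = 8.9e-10), with no overlap. MCM3 (-0.52), MCM7 (-0.29) and MCM5 (-0.23) also fell, MCM4 rose by 0.12 and MCM6 did not pass (0.03, 95% interval -0.10 to 0.17). In mean TPM MCM4 was lower with TRAP1 (75.04) than with DMSO (88.47) at 4 h. JQ1 at 4 h gave the same 4 falls, of -0.55 in MCM2, -0.60 in MCM3, -0.46 in MCM5 and -0.37 in MCM7, and a rise of 0.28 in MCM4. At 2 h TRAP1 had 4 of the 6 higher and none lower: MCM6 (0.29), MCM5 (0.25), MCM3 (0.19) and MCM4 (0.15). MCM3 and MCM5 were also called higher at 2 h with TRAP-1-NegB and with MS78, and MCM6 with MS78. The totals of calls with TRAP-1-NegB and MS78 at 2 h moved when libraries were left out, as given below.

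Among the factors that turn the loaded ring into a running helicase, MCM10, GINS1 and GINS3 fell with TRAP1 at 4 h. MCM10, which activates the helicase, had 23, 27.6 and 26.2 CPM with TRAP1 at 4 h, against 50.5, 40 and 42.1 CPM with DMSO (log2 fold change -0.79, SE 0.10, adjusted p = 8.0e-10). GINS1, a subunit of the 4-membered GINS complex, had 40.9, 37 and 41.3 CPM with TRAP1, against 77.6, 86.5 and 88.7 CPM with DMSO (log2 fold change -1.09, SE 0.09, adjusted p = 2.8e-15), and the groups of both genes did not overlap. With JQ1 GINS1 had 43.9, 50.2 and 40.4 CPM and fell by 0.91. GINS3 fell by 1.07 (SE 0.13). GINS2 had a log2 fold change in the same direction that narrowly missed the threshold against DMSO (-0.21, 95% interval -0.39 to -0.03, edgeR adjusted p = 0.0527); against TRAP-1-NegB at 4 h it was called lower (-0.22). GINS4 went the other way and rose to 89.2, 77.5 and 69.2 CPM with TRAP1 at 4 h, against 55.5, 49.2 and 50.2 CPM with DMSO (log2 fold change 0.61, SE 0.10, adjusted p = 4.6e-07), and also rose with TRAP-1-NegP (0.51) and JQ1 (0.74). With JQ1 at 2 h GINS4 had 74.7, 63.2 and 71.9 CPM, against 54.4, 48.6 and 48.9 CPM with DMSO, and rose by 0.46 without overlap; the call was lost with length-scaled counts. CDC45, the remaining partner of the active helicase, rose by 0.24 with TRAP1 and 0.27 with JQ1. Its mean TPM at 4 h was lower with TRAP1 (48.68) than with DMSO (52.36).

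PRIM1, the catalytic primase subunit, was the polymerase gene with the largest change. It had 10.8, 18.6 and 14.1 CPM with TRAP1, 12.2, 15.8 and 17.3 with TRAP-1-NegP and 18.8, 12.5 and 12.4 with JQ1 at 4 h, against 29.8, 36.1 and 26.4 CPM with DMSO. No library of the 3 compounds reached a DMSO library, and the log2 fold changes were -1.08, -1.03 and -1.08. At 2 h none of the 3 passed in PRIM1 (-0.03, -0.04 and -0.14 on the log2 scale). POLE2, a subunit of polymerase epsilon, fell by 0.85 with TRAP1, 0.56 with TRAP-1-NegP and 0.52 with JQ1 at 4 h, while the catalytic subunit POLE rose with TRAP-1-NegP (0.26) and JQ1 (0.40). POLA1, the catalytic subunit of polymerase alpha, had 45.7, 46 and 46 CPM with JQ1 at 2 h, against 31.3, 36.8 and 36 CPM with DMSO (log2 fold change 0.40, SE 0.11, adjusted p = 0.0025), and its partner POLA2 fell with JQ1 at 4 h (-0.45). POLD1, the catalytic subunit of polymerase delta, was called only in TRAP-1-NegP at 2 h (0.26) among these 6 compound and time pairs.

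ATAD5, which unloads the sliding clamp PCNA from DNA, separated the compounds at 4 h. It had 2.19, 3.86 and 3.77 CPM with TRAP1 at 4 h, against 8.14, 6.83 and 11.6 CPM with DMSO (log2 fold change -1.44, SE 0.22, adjusted p = 2.7e-07). TRAP-1-NegP had 8.04, 8.53 and 7.58 CPM and JQ1 9.63, 12 and 8.58 CPM, within or above the DMSO libraries (log2 fold changes -0.14, 95% interval -0.56 to 0.28, and 0.18, 95% interval -0.23 to 0.60). At 2 h ATAD5 was lower with all 3: 10.2, 8.54 and 8.96 CPM with TRAP1, 6.75, 7.57 and 6.29 with TRAP-1-NegP and 9.22, 10.1 and 8.52 with JQ1, against 15.9, 13 and 14.4 with DMSO. The log2 fold changes at 2 h were -0.64, -1.07 and -0.63; the TRAP1 and JQ1 calls were lost without DMSO replicate 1, the TRAP1 call also without TRAP1 replicate 2, and the JQ1 call also without JQ1 replicate 3. ATAD5 is also the member with the lowest TPM.

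Of the clamp loader subunits, which place PCNA on primed DNA, RFC4 (-0.71), RFC3 (-0.67) and RFC2 (-0.37) fell with TRAP1 at 4 h and RFC5 did not pass (-0.07). RFC4 had the opposite sign at 2 h: 38.9, 28.9 and 28.9 CPM with TRAP1 and 35.5, 34.5 and 36.4 CPM with TRAP-1-NegP, against 22.9, 28.1 and 25.6 CPM with DMSO. At 4 h it had 17.5, 12.8 and 13 CPM with TRAP1 and 15.9, 16 and 13.3 CPM with TRAP-1-NegP, against 21.9, 25.4 and 23.8 CPM with DMSO. RFC4 was thus above DMSO at 2 h (log2 fold changes 0.34 and 0.47) and below it at 4 h (-0.71 and -0.65). It was also called above DMSO at 2 h with TRAP-1-NegB (0.45) and with MS78, whose totals of calls moved when libraries were left out, as given below. The rise with TRAP1 at 2 h was lost in 5 of 14 alternatives, among them those without DMSO replicate 1 or 3 or TRAP1 replicate 1. LIG1, which seals Okazaki fragments, had 75.9, 78.1 and 77.9 CPM with TRAP1 and 86.3, 84.1 and 88.1 CPM with TRAP-1-NegP at 2 h, against 58.1, 63.1 and 59.9 CPM with DMSO, and rose by 0.36 and 0.51 with no overlap. The flap nuclease FEN1 rose at 4 h with TRAP-1-NegP (0.19) and JQ1 (0.15) and did not pass with TRAP1 (-0.07), and RPA2, of the single-strand binding complex, fell only with JQ1 at 4 h (-0.20) among these 3 compounds.

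Of the 6 members of nucleotide supply and uracil removal, 4 rose and 1 fell with TRAP1 at 4 h. TK1, the thymidine kinase of the salvage route, had 339, 387 and 381 CPM with TRAP1, against 241, 263 and 258 CPM with DMSO (log2 fold change 0.54, SE 0.06, adjusted p = 4.1e-10). RRM2, the regulated subunit of ribonucleotide reductase, had 175, 176 and 157 CPM with TRAP1, against 132, 127 and 110.1 CPM with DMSO (log2 fold change 0.46, SE 0.07, adjusted p = 2.4e-07), and rose further with TRAP-1-NegP (0.70) and JQ1 (0.68). All 3 libraries of TRAP1 lay above DMSO in both genes. TYMS, thymidylate synthase, differed by compound: 149, 142 and 142 CPM with TRAP1, 108, 106 and 113 with TRAP-1-NegP and 111, 97.1 and 110.4 with JQ1 at 4 h, against 105, 109.6 and 106 with DMSO. TYMS thus rose with TRAP1 (log2 fold change 0.44, SE 0.07, adjusted p = 1.1e-07), while TRAP-1-NegP (95% interval -0.10 to 0.16) and JQ1 (95% interval -0.14 to 0.13) overlapped DMSO. RRM1, the large reductase subunit, rose by 0.30 with TRAP1 although the libraries of the groups overlapped, and UNG, which removes uracil from DNA, fell by 0.37 with overlapping libraries. In mean TPM RRM1 was lower with TRAP1 (68.17) than with DMSO (70.57) at 4 h. DUT, the dUTPase, did not pass (0.12).

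SLBP, which binds the stem-loop of histone mRNA, was the member with the largest rise with TRAP-1-NegP and JQ1 at both times and with TRAP1 at 2 h, and followed ORC6 with TRAP1 at 4 h. At 4 h it had 155, 175 and 162 CPM with TRAP1, 182, 174 and 172 with TRAP-1-NegP and 216, 216 and 215 with JQ1, against 90.5, 92.7 and 83 with DMSO. At 2 h it had 150.3, 145 and 154 CPM with TRAP1, 158, 149.8 and 153 with TRAP-1-NegP and 161, 162 and 178 with JQ1, against 98.5, 102 and 102 with DMSO. No treated library overlapped DMSO at either time, and the log2 fold changes ran from 0.57 (TRAP1, 2 h) to 1.28 (JQ1, 4 h). ATAD2, a bromodomain ATPase that is itself an E2F target, had 162, 156 and 144 CPM with TRAP1 and 261, 283 and 253 CPM with JQ1 at 4 h, against 133, 113 and 126 CPM with DMSO, and rose by 0.31 and 1.10. Its mean TPM at 4 h was lower with TRAP1 (30.25) than with DMSO (31.18). Both subunits of the histone chaperone CAF-1 listed here fell with TRAP1 at 4 h, CHAF1A (-0.55) and CHAF1B (-0.43). UHRF1, which recruits the maintenance DNA methyltransferase, fell with TRAP1 (-0.53), rose with JQ1 (0.21; adjusted p = 0.0583 without JQ1 replicate 3) and did not pass with TRAP-1-NegP (-0.03).

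In the checkpoint group, CDC25A, the phosphatase that activates CDK2, had 25.6, 35.1 and 25.6 CPM with TRAP1 at 4 h, against 39.5, 47.3 and 40.7 CPM with DMSO (log2 fold change -0.56, SE 0.11, adjusted p = 1.9e-05). TRAP-1-NegP had 42.7, 47.4 and 44.4 CPM and JQ1 41.6, 40.4 and 46.1 CPM, which overlapped DMSO. BRCA1, of homologous recombination, had 27.1, 27.1 and 26.4 CPM with TRAP1, against 46.7, 44.1 and 38.8 CPM with DMSO, with no overlap (log2 fold change -0.68, SE 0.09, adjusted p = 1.2e-08), and fell by 0.50 with TRAP-1-NegP. CLSPN, the adaptor that carries the ATR signal to CHK1, rose with TRAP-1-NegP (0.48) and JQ1 (0.78) at 4 h and did not pass with TRAP1 (0.08, 95% interval -0.08 to 0.23).

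TRAP1 was then set against TRAP-1-NegP at the same dose and time. At 4 h, 19 members were lower with TRAP1 and 2 were higher (all genes 8.09% and 7.25%), with a median log2 fold change of -0.18 over the members and -0.01 over all genes. The largest differences were in E2F2 (log2 fold change -1.31, SE 0.21, adjusted p = 3.9e-06) and ATAD5 (log2 fold change -1.30, SE 0.22, adjusted p = 1.7e-05). CDT1 (log2 fold change -0.71, SE 0.09, adjusted p = 5.0e-09) and CDC25A (-0.64) followed, and the libraries given above show no overlap in these 4 genes. ORC1 (-0.58), UHRF1 (-0.50), GINS3 (-0.58), E2F1 (-0.48), MCM10 (-0.45), CLSPN (-0.40) and GINS1 (-0.36) were also lower with TRAP1. E2F8 was called (-0.58) with overlapping libraries, and that call was lost in 9 of 14 alternatives. TYMS was higher with TRAP1 (log2 fold change 0.41, SE 0.07, adjusted p = 4.0e-06) without overlap, and RRM1 (0.23) with overlap; the RRM1 call was lost without TRAP1 replicate 1 or 3 or TRAP-1-NegP replicate 2 or 3.

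Other members that changed strongly against DMSO did not pass in this comparison. ORC6 differed by 0.03 (95% interval -0.12 to 0.18), SLBP by -0.10 (95% interval -0.23 to 0.03), PRIM1 by -0.06 (95% interval -0.35 to 0.24) and RFC4 by -0.06 (95% interval -0.33 to 0.21). No polymerase or primase member was called of 6; the largest difference among them was -0.28 in POLE2 (95% interval -0.59 to 0.03). At 2 h 1 member was lower and 0 were higher by edgeR (all genes 0.274% and 0.527%), with 9 members at an unadjusted p under 0.05 and 2 called by DESeq2; edgeR called 3 without both libraries that stood apart and 6 when only these groups were fitted. That member was CDT1, with 52, 52.4 and 58.7 CPM with TRAP1, against 79.1, 73.2 and 74.5 CPM with TRAP-1-NegP (log2 fold change -0.47, SE 0.09, adjusted p = 0.00038). E2F2 at 2 h differed by 0.03 (95% interval -0.35 to 0.42) and ATAD5 by 0.43 (95% interval 0.01 to 0.85).

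**Figure D3:**
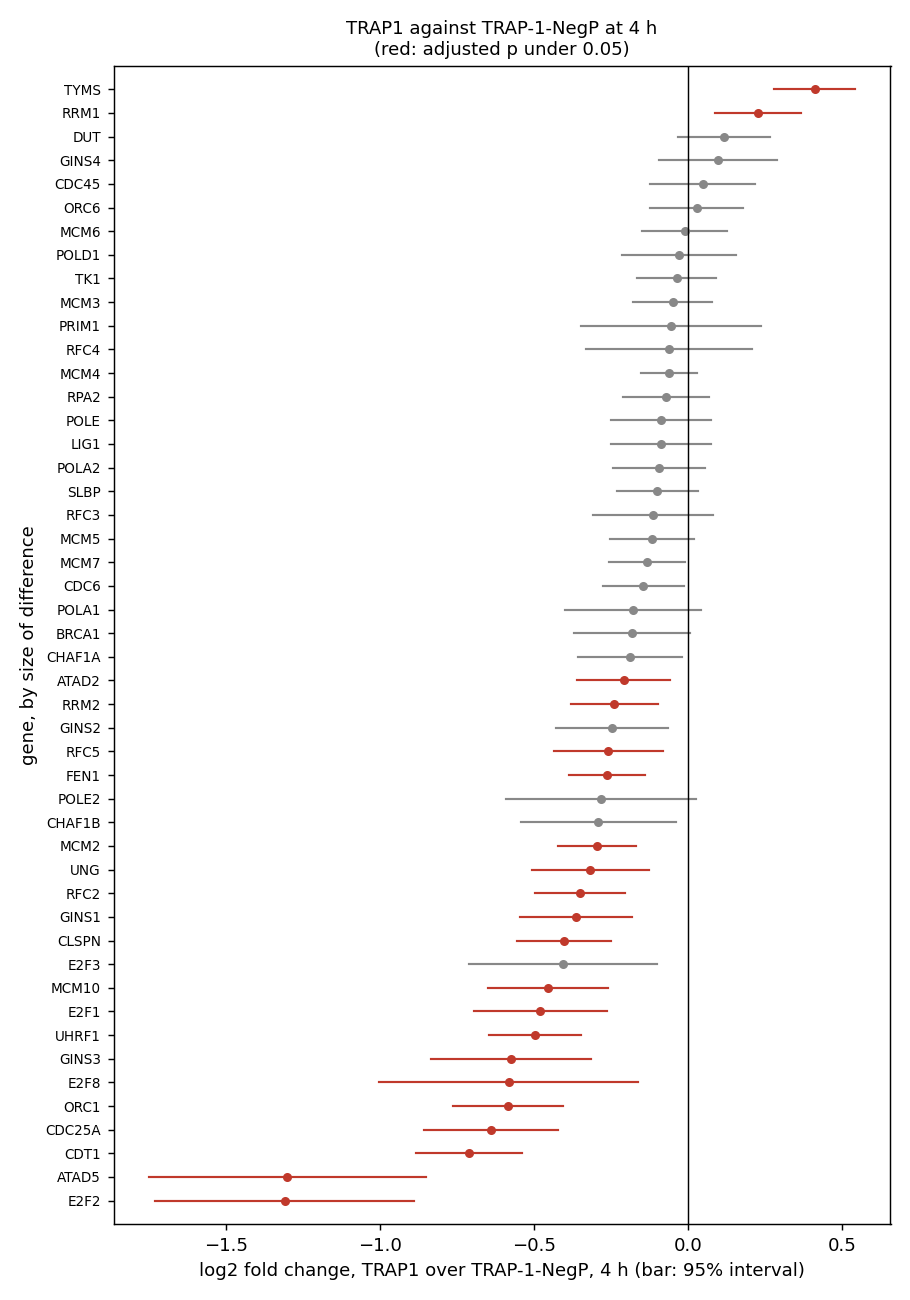
Log2 fold change of each of the 48 members, TRAP1 over TRAP-1-NegP at 4 h (points, sorted by size) with 95% intervals (bars); red marks an adjusted p under 0.05 and grey the rest. The called members are 19 to the left of 0, led by E2F2 and ATAD5, and 2 to the right, TYMS and RRM1.

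Against JQ1 at 4 h, TRAP1 had 23 members lower and 4 higher (all genes 14.9% and 12.5%). The largest differences were in ATAD5 (log2 fold change -1.62, SE 0.22, adjusted p = 8.5e-08), E2F2 (log2 fold change -1.48, SE 0.21, adjusted p = 1.3e-07) and ATAD2 (log2 fold change -0.79, SE 0.08, adjusted p = 3.4e-12), all without overlap. UHRF1 (-0.74) and CLSPN (-0.71), which rose with JQ1 and not with TRAP1, followed. TYMS (log2 fold change 0.44, SE 0.07, adjusted p = 4.3e-07), POLA2 (0.24), MCM5 (0.23) and TK1 (0.23) were higher with TRAP1; the POLA2 call was lost without JQ1 replicate 1. POLA2 had 82.6, 89.2 and 84 CPM with TRAP1, against 67.6, 70.5 and 77.6 CPM with JQ1, and TK1 339, 387 and 381 CPM with TRAP1, against 309, 302 and 334 CPM with JQ1, each without overlap. At 2 h 1 member was higher and 0 were lower by edgeR (all genes 1.1% and 0.887%), with 6 at an unadjusted p under 0.05 and 1 called by DESeq2. It was TYMS, with 126, 122 and 128 CPM with TRAP1, against 109.8, 108 and 102 CPM with JQ1 (log2 fold change 0.23, SE 0.07, adjusted p = 0.0461); the call was lost in 9 of 14 alternatives, among them the loss of any 1 of the 6 libraries.

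TRAP-1-NegP was also set against JQ1. At 4 h 9 members were higher and 7 lower with TRAP-1-NegP (all genes 12.9% and 12.9%), led by ATAD2 (-0.58) and POLA1 (-0.44) on the lower side and by CDT1 (0.36), MCM5 (0.34) and POLA2 (0.34) on the higher side. At 2 h the counts were 5 and 1 (all genes 7.26% and 5.65%), with CDT1 the largest (0.46). The total of 6 at 2 h was 3 without JQ1 replicate 1 or without TRAP-1-NegP replicate 3, and 11 when only these groups were fitted.

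Few members were called with TRAP-1-NegB against DMSO. At 4 h none was called by edgeR (all genes 0.827% higher and 0.2% lower), 4 had an unadjusted p under 0.05, DESeq2 called 1, and the log2 fold changes ran from -0.32 to 0.21. At 2 h 4 were higher and 1 lower (all genes 5.08% and 5.87%): RFC4 (0.45), CHAF1A (0.30), MCM5 (0.23), MCM3 (0.21) and RPA2 (-0.21). This total of 5 ran from 2 (without TRAP-1-NegB replicate 1) to 9 (without TRAP-1-NegB replicate 3) when 1 library was left out, with 8 without DMSO replicate 2 and 3 without DMSO replicate 3. Without both libraries that stood apart it was 17, with only the 2 groups fitted it was 18, and with DESeq2 size factors the split was 5 higher and none lower. MS78 had 8 higher and 3 lower at 4 h (all genes 6.23% and 9.05%), led by RFC4 (0.42), RRM1 (0.35) and CDT1 (-0.35), and the total of 11 became 7 without MS78 replicate 1. At 2 h MS78 had 11 higher and 5 lower (all genes 8.3% and 7.65%), led by CHAF1A (0.47), MCM5 (0.44) and RFC5 (-0.49). That total of 16 was 10 without MS78 replicate 1, the library that stands apart, and 2 when MS78 and DMSO were fitted alone.

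E2F2, which fell most with TRAP1, had 11.8, 13.5 and 12.7 CPM with MS78 and 14.4, 12.1 and 13.8 CPM with TRAP-1-NegB at 4 h, against 19.6, 13.5 and 16.6 CPM with DMSO; both missed the threshold (log2 fold changes -0.39, 95% interval -0.76 to -0.03, and -0.30, 95% interval -0.67 to 0.06). MS78 against TRAP-1-NegB gave 6 higher and 1 lower at 4 h (all genes 2.01% and 6.92%) and 1 and 1 at 2 h (all genes 1.52% and 1.65%). The 4 h total of 7 was 2 without MS78 replicate 1 and 4 without TRAP-1-NegB replicate 3, 15 without both libraries that stood apart and 13 when only these groups were fitted. The 2 h total of 2 was 0 without MS78 replicate 1 or without TRAP-1-NegB replicate 1 or 2, 7 without MS78 replicate 2 and 13 without MS78 replicate 3. TRAP1 against TRAP-1-NegB had 24 lower and 14 higher at 4 h (all genes 24.2% and 22%) and 10 and 9 at 2 h (all genes 9.13% and 11.6%). The 2 h total of 19 was 10 without TRAP-1-NegB replicate 2, 11 without TRAP1 replicate 1, and 12 without TRAP1 replicate 2 or TRAP-1-NegB replicate 1. TRAP1 against MS78 had 23 lower and 10 higher at 4 h (all genes 25.4% and 23.9%) and 11 and 11 at 2 h (all genes 10.6% and 12%). The 2 h total of 22 was 9, with 5 lower and 4 higher, when TRAP1 and MS78 were fitted alone.

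**Figure D4:**
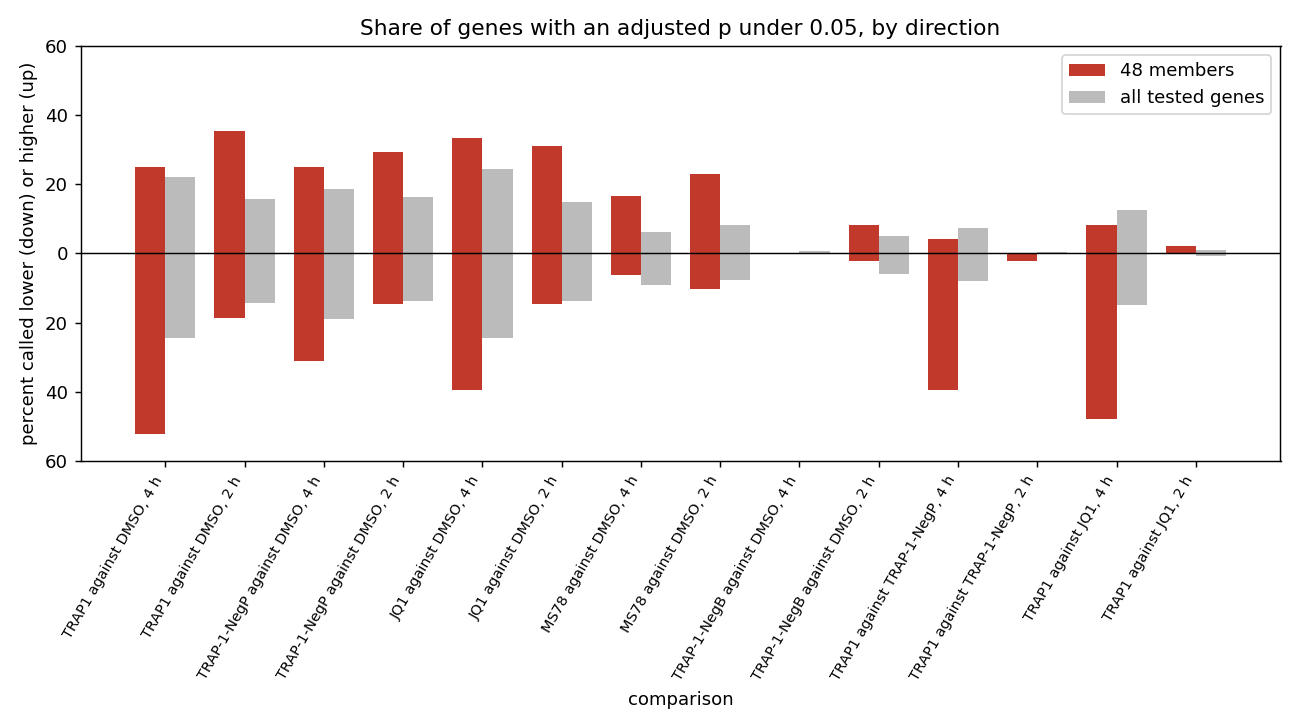
Percent of genes with an adjusted p under 0.05, upward for higher and downward for lower, among the 48 members (red) and all 14988 tested genes (grey), for 14 comparisons named on the x axis. The red downward bar reaches 52.1% for TRAP1 against DMSO, 47.9% against JQ1 and 39.6% against TRAP-1-NegP at 4 h, and no red bar appears for TRAP-1-NegB at 4 h.

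Members also differed between the DMSO groups. In DMSO at 4 h against 2 h, 15 members were lower and 7 higher (all genes 9.45% and 11.4%). ATAD5 (-0.70), CLSPN (-0.46) and ATAD2 (-0.36) led the falls and CDT1 (0.47), TK1 (0.45) and POLD1 (0.37) the rises. Over the same libraries, 25 of 44 G2/M and mitotic genes rose and none fell (median log2 fold change 0.29). The part of these shifts in the compound effects was not tested; each compound was set against DMSO of its own time.

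The effect of a compound at 4 h was set against its effect at 2 h, each against its own DMSO. With TRAP1, 20 members had a lower effect at 4 h and 4 a higher one (all genes 11.8% and 10.2%). E2F2 (-1.56, SE 0.27, adjusted p = 2.0e-05), PRIM1 (-1.05), RFC4 (-1.05) and POLE2 (-0.91) had the largest negative differences and ORC6 (0.69) the largest positive one. TRAP-1-NegP had 10 and 9 (all genes 12.2% and 11%) and JQ1 13 and 7 (all genes 12.8% and 13.2%). ATAD5 differed in sign between compounds: the difference between times was -0.80 with TRAP1, 0.93 with TRAP-1-NegP and 0.81 with JQ1, the 3 sharing their DMSO libraries. In DMSO itself ATAD5 was lower at 4 h than at 2 h (log2 fold change -0.7), and this fall enters all 3 differences. The call with TRAP1 was lost in 12 of 20 alternatives, that with JQ1 in 6 and that with TRAP-1-NegP in 1.

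The effect of TRAP1 was also compared with the sum, on the log2 scale, of the effects of TRAP-1-NegP and TRAP-1-NegB. At 4 h the TRAP1 effect was lower than the sum in 11 members and higher in 1 (all genes 3.62% and 3.34%). The members were ATAD5 (-1.51), E2F2 (-1.01), CDC25A (-0.61), GINS3 (-0.55), CDT1 (-0.54), CLSPN (-0.53), ORC1 (-0.47), RFC2 (-0.39), UHRF1 (-0.38), RRM2 (-0.32) and CDC6 (-0.31), and on the higher side TYMS (0.55). E2F2 thus had a log2 fold change against DMSO of -2.43 with TRAP1, beside -1.12 with TRAP-1-NegP and -0.30 with TRAP-1-NegB. At 2 h 5 were lower and 0 higher (all genes 2.45% and 2.56%), led by CDT1 (-0.66); 12 members had an unadjusted p under 0.05, DESeq2 called 1 higher and 6 lower, and the 2 h total of 5 was 2 without DMSO replicate 1 or 3, TRAP-1-NegB replicate 1, TRAP-1-NegP replicate 2 or TRAP1 replicate 3, and 3 without TRAP-1-NegP replicate 1 or TRAP1 replicate 1 or 2. It was 9 without both libraries that stood apart and 11 when only the groups compared were fitted.

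In 70 further G1/S and replication genes outside the 48, TRAP1 at 4 h had 28 lower and 21 higher (all genes 24.5% and 22.2%), with a median log2 fold change of -0.05. CDCA7 (-1.92), ZNF367 (-1.68), POLD3 (-1.58) and TOPBP1 (-0.87) had the smallest adjusted p among those that fell, and E2F7 (1.54), RRM2B (1.47), PCNA (1.06) and ASF1B (0.71) among those that rose. PCNA, the sliding clamp itself, had 824, 804 and 791 CPM with TRAP1, 535, 522 and 523 with TRAP-1-NegP and 554, 554 and 556 with JQ1 at 4 h, against 394, 399.9 and 369 with DMSO, so it rose while its loader subunits RFC2, RFC3 and RFC4 fell. CDKN1A, which encodes the CDK inhibitor p21, had 7556, 7718 and 8007 CPM with TRAP1, 674, 689 and 674 with TRAP-1-NegP and 730.1, 669 and 713 with JQ1 at 4 h, against 161, 156 and 166 with DMSO. CDKN1A was thus highest with TRAP1, where E2F2 was lowest, and its part in the changes of the members was not tested. Of 44 G2/M and mitotic genes, 29 fell and 7 rose with TRAP1 at 4 h against DMSO, and 26 fell and 2 rose against TRAP-1-NegP.

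By gene length, the 12 members called higher with TRAP1 at 4 h had a median span of 18405 bases from first to last exon. The 25 called lower had 31272 bases and the 11 without a call 33696 bases, in the RefSeq annotation of GRCh38. The spans of the groups overlapped widely (8736 to 96501, 5470 to 159229 and 4328 to 303069 bases).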

How the data were processed

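The authors deposited tables of gene-level estimated counts from Salmon, of length-scaled counts and of TPM values. They cover 36 libraries of polyadenylated RNA read as 150-base pairs. The submitters' processing notes name Salmon 1.10.3, nf-core/rnaseq 3.18.0 and build hg38; the release of the gene annotation was not stated there. Those estimated counts were rounded to whole numbers, genes were kept by filterByExpr (minimum count 10 over the 12 groups), and libraries were scaled by TMM in edgeR 4.0.16 (R 4.3.3, limma 3.58.1). The quasi-likelihood test with robust dispersions was fitted to all 36 libraries with 1 mean per group, for 28 comparisons, and p-values were two-sided and adjusted by Benjamini-Hochberg over the 14988 tested genes in that comparison; an adjusted p under 0.05 made a call. Standard errors and 95% intervals come from the same fit. TPM, which the authors made relative to transcript length and library total, was used for levels between genes and for the marker genes. It was also used for the direction of the rises with TRAP1 at 4 h. Estimated counts share reads among similar transcripts, which can blur close paralogs, and library totals of 15288688 to 26608325 leave the lowest members least precise. DESeq2 1.42.0 was one of the alternatives, beside other scaling, filters, a replicate block, length-scaled counts, fewer groups and libraries left out. Tests were checked on simulated counts. Figures were drawn with matplotlib 3.10.9 in Python 3.11.15.

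Per-library values are given for the members with the largest changes in each direction among called members with at least 5 CPM and no overlap between groups (5 for TRAP1 against DMSO at 4 h, otherwise 3), and for a panel of 11 members. Outside the members, CDKN1A, PCNA and up to 4 genes per direction by adjusted p were named. The members and lists were chosen with earlier results of these data known. Likeness used Pearson correlations of log2(CPM + 1). The labels' replicate numbers showed no strong pairing of the libraries, so the fit has no replicate term. A fit with the number as a block is given below.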

Additional observations from a re-analysis of the deposited data

Results flagged for a closer look

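The effect against DMSO differed between 4 h and 2 h, by the test of that difference, in 24 members with TRAP1, in 19 with TRAP-1-NegP and in 20 with JQ1 (edgeR, adjusted p under 0.05). Over all tested genes, 11.8% had a lower and 10.2% a higher effect at 4 h with TRAP1, 12.2% and 11% with TRAP-1-NegP, and 12.8% and 13.2% with JQ1. With TRAP1, RFC4, MCM3 and MCM5 were called below DMSO at 4 h and above it at 2 h, and the effect at 4 h minus that at 2 h was -1.05 in RFC4, -0.71 in MCM3 and -0.48 in MCM5 on the log2 scale. With TRAP-1-NegP the same change of side was seen in RFC4, where the difference was -1.12, in MCM3, where it was -0.68, and in MCM7, where it was -0.40. The 3 compounds share their DMSO libraries, so a shift in DMSO enters all of these differences. At 2 h RFC4, MCM3 and MCM5 were also called above DMSO with TRAP-1-NegB and with MS78, and MCM7 with MS78. These calls belong to totals that moved. The MS78 total of 16 at 2 h was 10 without MS78 replicate 1 and 2 when MS78 and DMSO were fitted alone. The TRAP-1-NegB total of 5 at 2 h ran from 2 to 9 when 1 library was left out. TRAP1 against TRAP-1-NegB at 2 h gave no call in RFC4, MCM3 or MCM5. Against MS78 at 2 h, TRAP1 was called lower in MCM3 and MCM5.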

How the results depend on the processing

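Of 495 calls of members over 28 comparisons, 482 were kept with DESeq2 size factors within edgeR, 460 with no count filter, 494 with a stricter filter, 478 with length-scaled counts, 488 with the DESeq2 Wald test, 454 when only the groups compared were fitted, and 471 without TRAP1 4 h replicate 1 and MS78 2 h replicate 1 together; no call turned its sign in these. In the same order 10, 19, 9, 13, 36, 84 and 89 calls were gained. Of 224 counts of called members, 198 stayed within 1.5 times the reported one. With the DESeq2 Wald test the count was 8 for TRAP-1-NegB against DMSO at 2 h, 1 at 4 h, 2 for TRAP1 against TRAP-1-NegP at 2 h, and 7 and 13 for MS78 against TRAP-1-NegB at 2 h and 4 h. With only the groups compared it was 18 for TRAP-1-NegB and 2 for MS78 against DMSO at 2 h, 6 for TRAP1 against TRAP-1-NegP, 2 against JQ1 and 9 against MS78 at 2 h, 11 for TRAP-1-NegP against JQ1 at 2 h, 0 and 13 for MS78 against TRAP-1-NegB at 2 h and 4 h, and 11 for TRAP1 minus the sum at 2 h. Without both libraries that stood apart it was 17 and 1 for TRAP-1-NegB against DMSO at 2 h and 4 h, 3 for TRAP1 against TRAP-1-NegP at 2 h, 0 and 15 for MS78 against TRAP-1-NegB at 2 h and 4 h, and 9 for TRAP1 minus the sum at 2 h. With no count filter it was 0 for TRAP1 against JQ1, 4 for MS78 against TRAP-1-NegB and 3 for TRAP1 minus the sum, all at 2 h, and with length-scaled counts 0 for TRAP1 against JQ1 at 2 h. Leaving out 1 library gave 2 to 9 for TRAP-1-NegB, 10 to 15 for MS78 at 2 h and 7 to 11 for MS78 at 4 h against DMSO, 10 to 15 for TRAP1 against TRAP-1-NegB at 2 h, 0 in each case for TRAP1 against JQ1 at 2 h, 3 to 5 for TRAP-1-NegP against JQ1 at 2 h, 0 to 13 and 2 to 8 for MS78 against TRAP-1-NegB at 2 h and 4 h, and 2 to 6 for TRAP1 minus the sum at 2 h. TRAP1 against DMSO at 4 h gave 33 to 37, and against TRAP-1-NegP 16 to 21. The causes were not tested. Depth limits ATAD5, E2F8 and E2F2 most, and with 3 libraries a group differences of small size can be missed.

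Libraries with the same replicate number showed no strong pairing: none of 23 comparisons had all correlations over 0.1 (range -0.21 to 0.099). Of 36 libraries, 17 correlated best with their own number, so a weak pairing is not excluded. With the number as a replicate block, 483 of the 495 calls were kept, 12 were lost and 0 gained; the count was 0 for TRAP1 against JQ1 and 1 for MS78 against TRAP-1-NegB, both at 2 h.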
